A study of Mus musculus with 2 samples.

Results

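The members are 10 genes of the EGF family and its receptors, namely the 4 ERBB receptor genes Egfr, Erbb2, Erbb3 and Erbb4 and the 6 ligand genes Egf, Tgfa, Hbegf, Areg, Ereg and Nrg1. They were found as every gene spot whose gene name in the scanner data was one of these, which gave 52 spots of 13 probes, out of 157716 gene spots, 39429 probes and 30011 genes on the array. Cultured ureters of mouse embryos were compared as mutant over control RNA. The mutant genotype, called Fgfr1/2cDKO by the submitters, joins Tbx18(cre/+) with Fgfr1(fl/fl) and Fgfr2(fl/fl), and the control genotype is Fgfr1(fl/?) with Fgfr2(fl/?), with no Cre allele listed for it. Both are of the NMRI strain, and all ureters were dissected at embryonic stage E15.5 and kept for 6 days on transwell membranes. Cre from the Tbx18 locus acts in the mesenchyme around the ureteric epithelium and its descendants, and these include the ureteric smooth muscle, while the epithelium of that tube keeps both receptor genes. Because the controls lack Cre by the labels, the effect of receptor loss and that of the Cre allele cannot be told apart.

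ERBB proteins are receptor tyrosine kinases that span the cell membrane. The ligands are made as membrane-bound precursors, are cut free by proteases, and bring receptors together in pairs that signal through RAS and ERK and through PI3 kinase. In the bladder and ureter, the receptor EGFR and its ligands are known from urothelial growth and repair, and neuregulin and ERBB3 are known from the glia of peripheral nerves.

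On each of 2 arrays, a mutant RNA and a control RNA were hybridised together in different dyes. Array 1 held replicate 1, labelled male, with the mutant RNA in Cy5. Array 2 held replicate 2, labelled female, with the mutant RNA in Cy3, so replicate, sex label and dye orientation cannot be told apart. The labels give no number of embryos per RNA and no statement on separate litters, so the p-values reflect the spread of these samples alone, and that spread may be technical. Between 69.3% and 77.4% of probes were well above background in an RNA. Precision is limited by having 2 arrays. Of 3 Fgfr1 probes, all lay below 0 on both arrays. As mean log2 ratios of mutant over control, the brightest stood at -0.33 ± 0.15 (SD, n = 2, limma adjusted p = 0.134). Another, at -0.54 ± 0.21, passed in the fit over probes (adjusted p = 0.0280). The brightest Fgfr2 probe stood at 0.56 ± 0.02 (adjusted p = 0.0309). A further Fgfr2 probe, at 0.76 ± 0.06, passed in the fit over probes (adjusted p = 0.00686). Which exons are floxed is not stated in the labels, so these probes check neither the genotype nor the labels.

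Among the EGF family and its receptors, the ligand gene Hbegf was the member that passed the test. It rose by a log2 ratio of 0.48 ± 0.08 (SD, n = 2), or 1.40-fold, with an adjusted p of 0.0473 that lies close to the threshold of 0.05. This call rests on a weighting of the loess normalisation, with the array's filler probe at weight 0, that was settled after the members' values had been seen. With the filler probe kept, the adjusted p was 0.0508, and over all alternatives with a test the call held in 7 of 14. Among the alternatives that recompute the ratio of Hbegf, the call held with a background offset of 0 and with outlier spots alone kept. It was lost with the scanner software's processed signals, median centring, the authors' value table and the filler probe kept. The other alternatives leave that ratio unchanged. The receptor gene Erbb2 had the next highest ratio, 0.42 ± 0.14, and did not pass (adjusted p = 0.0724). The 3 probes of Egfr had means below 0 and none passed. The other members that could be tested, Erbb4, Egf, Tgfa, Areg, Ereg and Nrg1, had means between -0.19 and 0.20 and did not pass.

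All adjusted p-values come from limma, two-sided, with Benjamini-Hochberg adjustment. It runs over all 22070 genes tested, except in the fit over probes and in alternatives with another filter, where it runs over their own features. The 95% intervals use the variance of the main fit, which eBayes moderated over all genes (1 residual and 7.45 prior degrees of freedom). Of the 10 members, 9 passed the filter on dim probes and were tested, with 11 probes. Of these 9, 1 was called higher and 0 lower, or 11.1%, against 3.79% of all genes tested in either direction, 1.76% called higher and 2.03% called lower. At an unadjusted p below 0.05 there were 2 of 9 members, and 22.5% of all genes. The members' median log2 ratio was 0.09, against -0.02 over all genes. A single call among 9 genes does not set the members apart from the rest of the array. By direction, 5 members were above 0 on both arrays, 1 was below 0 on both, and 3 had opposite signs on the arrays. The shares of all genes with the same sign on both arrays, or with groups that do not overlap, were not counted.

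The receptors are described first, from the best known to the dimmest. EGFR binds EGF, TGF-alpha, amphiregulin, epiregulin and HB-EGF. Its gene was measured by 3 probes on chromosome 11 (mm9, plus strand), at chr11:16783556-16783615, chr11:16787172-16787231 and chr11:16813815-16813874. Exon, intron and UTR annotation of that build was not used here. The first 2 carry one RefSeq transcript record in the scanner data and the last carries another. They gave different answers, so the first 30 of the 60 bases of each are shown, 5′ to 3′, as deposited and in the order of the gene's strand.
Egfr probe 1: tctggaagtatgcagatgccaataatgtct
Egfr probe 2: gaagtgtggccatctgggtacgttcaatgg
Egfr probe 3: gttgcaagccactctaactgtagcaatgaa

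Egfr probe 3 is the brightest of the 3 and stands for the gene in the test. Its log2 signal was 13.64 and 13.96 in the control RNAs of arrays 1 and 2, and 13.68 and 13.61 in the mutant RNAs. The groups overlapped, and the mutant RNA was slightly higher on array 1 and lower on array 2. The log2 ratios were 0.04 and -0.35, with a mean of -0.16 ± 0.28 (SD, n = 2; adjusted p = 0.496) and a 95% interval from -0.44 to 0.13.

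Both other Egfr probes were lower in the mutant RNA on both arrays. Egfr probe 1 had log2 signals of 10.71 and 10.53 in the control RNAs and 10.52 and 10.12 in the mutant RNAs. Its ratios were -0.19 and -0.41, and both mutant values were below both control values. Egfr probe 2 had 9.62 and 9.61 in the control RNAs and 9.37 and 9.14 in the mutant RNAs, where the groups did not overlap either. Its ratios were -0.25 and -0.46. In a fit over all 28915 probes tested, in which 5.09% of probes were called (2.52% higher and 2.57% lower), the means were -0.30 ± 0.15 for probe 1 (adjusted p = 0.145) and -0.36 ± 0.15 for probe 2 (adjusted p = 0.0956). With the mean over the 3 probes in place of the brightest one, the Egfr ratio was -0.27 ± 0.19 (adjusted p = 0.183). No choice of probe led to a call, and the size of the difference moved by over 1.5 times with it.

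ERBB2 has no known ligand of its own and acts as the partner of the other receptors. Its probe lies on chromosome 11 (mm9, plus strand) at chr11:98298103-98298162, and its first 30 bases are shown because Erbb2 had the highest ratio among the receptor genes.
Erbb2 probe: ggctatgccaggaacgtgccctgaggaacc

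Erbb2 had log2 signals of 10.37 and 10.58 in the control RNAs and 10.70 and 11.09 in the mutant RNAs of arrays 1 and 2. Both mutant values were above both control values. The ratios were 0.33 and 0.52, which is 1.34-fold on average, and the 4 spots of each array lay between 0.30 and 0.37 and between 0.48 and 0.54. The mean of 0.42 had a 95% interval from 0.17 to 0.67, which takes no account of the number of genes tested. The width of that interval rests on the variance moderated over all genes, not on the ratios of Erbb2 alone. After adjustment Erbb2 did not pass at 0.05 and would pass at 0.10, where 1907 genes of the array pass.

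ERBB3 binds neuregulins and has little kinase activity of its own. The Erbb3 probe was dim and was not tested. It was well above background in 4 and 2 of 4 spots in the control RNAs of arrays 1 and 2, and in 0 and 3 of 4 spots in the mutant RNAs. Its log2 signals of 6.83 and 6.73 in the control RNAs and 6.77 and 6.88 in the mutant RNAs stood close to the lowest signals well above background, 6.48 to 6.74 over the 4 RNAs; the array's filler probe had medians of 6.17 to 6.20. A fall or a small difference in Erbb3 would be hidden at this signal, and no difference was tested.

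ERBB4 is a neuregulin receptor that also binds HB-EGF, and its gene had 2 probes, of which the first was above background and the other was not. The first lies on chromosome 1 (mm9, minus strand) at chr1:68078805-68078864.

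Erbb4 probe 1 was well above background in all 4 spots of each RNA, with log2 signals of 7.47 and 7.16 in the control RNAs and 7.63 and 7.19 in the mutant RNAs. The arrays differed by more than the genotypes. The ratios of 0.15 and 0.03 gave a mean of 0.09 ± 0.09 (SD, n = 2; adjusted p = 0.664; 95% interval from -0.15 to 0.33). Erbb4 probe 2 was well above background in 1 of 4 spots of 1 control RNA and in 0 of 4 spots of the other 3 RNAs, and it was not tested.

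**Figure D1:**
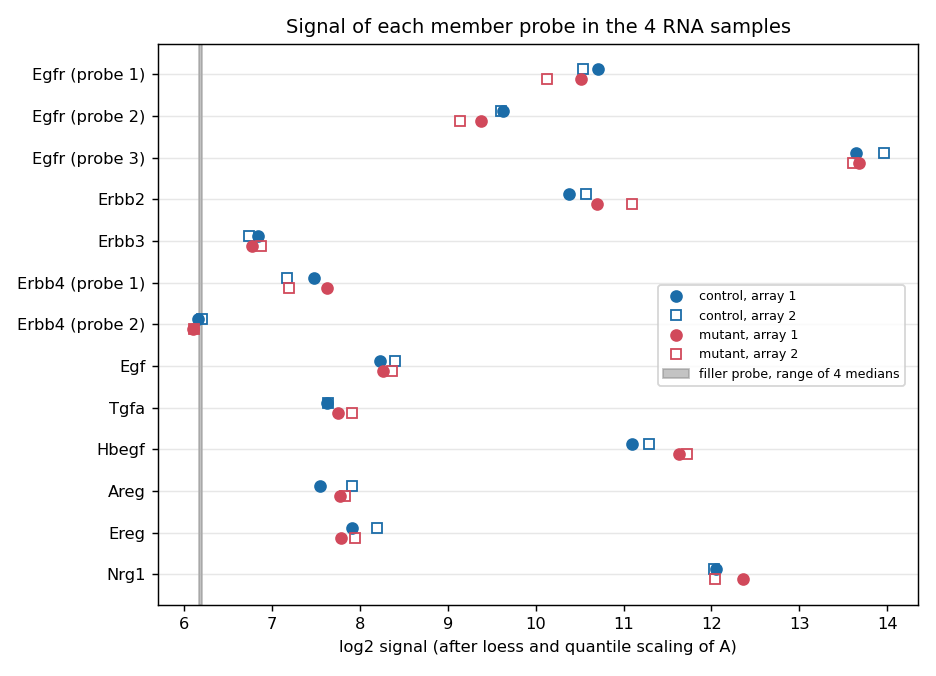
Log2 signal of each of the 13 member probes (rows) in the 4 RNA samples, with filled circles for array 1, open squares for array 2, blue for control and red for mutant; the grey band is the range of the filler probe's 4 medians. Hbegf, Erbb2 and Tgfa have both mutant values above both control values, while Egfr probes 1 and 2 and the dim Erbb4 probe 2 have both below. The share of all genes with such separation was not counted. Egfr probe 3 is split between arrays, and Erbb3 and Erbb4 probe 2 are the probes next to the grey band. Signals of different probes are not comparable with each other.

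Among the ligands, HB-EGF is a heparin-binding growth factor that binds EGFR and ERBB4. Its gene Hbegf had log2 signals of 11.10 and 11.29 in the control RNAs and 11.63 and 11.72 in the mutant RNAs of arrays 1 and 2. Both mutant values were above both control values. The ratios were 0.54 and 0.43, with spots between 0.50 and 0.57 on array 1 and between 0.40 and 0.45 on array 2. The spots of an array thus differed less than the arrays did. The mean of 0.48 had a 95% interval from 0.24 to 0.73, again with no account of the number of genes tested. Its width too rests on the variance moderated over all genes, not on the ratios of Hbegf alone.

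The call on Hbegf depended on the processing, while its direction did not. It lay above 0 in all 14 alternatives with a test, with ratios from 0.29 to 0.50, and its adjusted p was below 0.05 in 7 of the 14, from 0.0238 to 0.327. There were 4 weightings of the loess, compared with these values in view. With the filler probe kept, as it was at first, the ratio was 0.49 and the adjusted p 0.0508, and 0.0559 with the outlier spots kept too. With the filler probe at weight 0 and the outlier spots kept, it was 0.0454. Erbb2 lay above 0 in all 14, though the same alternatives leave its ratio unchanged. It passed in 0 of 14, with adjusted p from 0.0535 to 0.449.

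**Figure D2:**
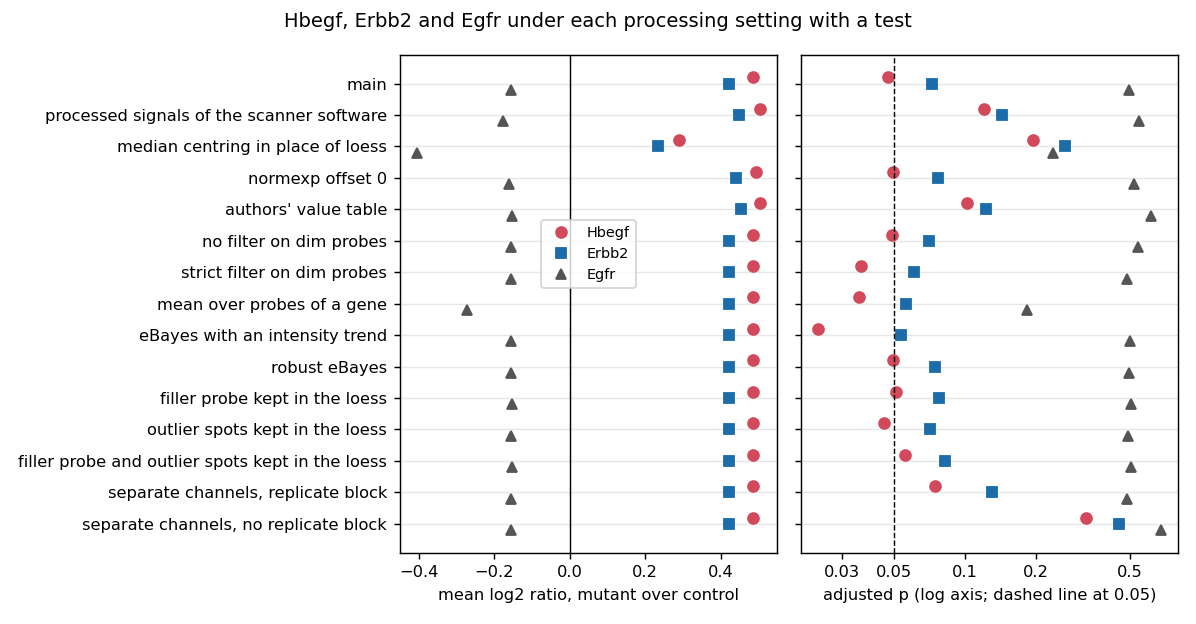
Mean log2 ratio of mutant over control (left) and adjusted p (right, log axis, dashed line at 0.05) of Hbegf, Erbb2 and Egfr in the main setting and the 14 alternatives with a test. Hbegf lies below the line in 7 of the 14, Erbb2 and Egfr in none of them, and the 3 genes keep their sign in each. Several alternatives leave the ratio of a gene unchanged, so its sign was fixed there.

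TGF-alpha is an EGFR ligand that can stay on the cell surface. Tgfa had log2 signals of 7.63 and 7.64 in the control RNAs and 7.75 and 7.91 in the mutant RNAs, with the mutant values above the control values on both arrays. Its mean ratio of 0.20 ± 0.10 (SD, n = 2; adjusted p = 0.314) had a 95% interval from -0.05 to 0.44.

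Amphiregulin and epiregulin are EGFR ligands whose genes lie near each other on chromosome 5. Areg had log2 signals of 7.54 and 7.91 in the control RNAs and 7.77 and 7.82 in the mutant RNAs, and the groups overlapped. Its ratios had opposite signs, 0.23 and -0.09, with a mean of 0.07 ± 0.22 (adjusted p = 0.769). Ereg had 7.91 and 8.20 in the control RNAs and 7.78 and 7.94 in the mutant RNAs, and the groups overlapped here too, although each array had the lower signal in the mutant RNA. Its mean ratio of -0.19 ± 0.09 (adjusted p = 0.338) was the lowest of the tested members with the brightest probe of each gene, though not with the mean over probes or with median centring, where Egfr was lower. It had a 95% interval from -0.43 to 0.06. The neighbours thus gave means on different sides of 0, neither of them called, and the difference between them was not tested.

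EGF, the ligand that gives the family its name, is made in quantity by the kidney's distal tubule. Egf had log2 signals of 8.22 and 8.40 in the control RNAs and 8.26 and 8.37 in the mutant RNAs. The ratios of 0.04 and -0.03 gave a mean of 0.01 ± 0.05 (SD, n = 2; adjusted p = 0.981), with a 95% interval from -0.23 to 0.25.

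Neuregulin 1 binds ERBB3 and ERBB4. Nrg1 had log2 signals of 12.06 and 12.02 in the control RNAs and 12.36 and 12.04 in the mutant RNAs. The mutant RNA of array 1 was the high one and the other 3 lay together. The ratios of 0.30 and 0.01 gave a mean of 0.16 ± 0.20 (adjusted p = 0.462), with a 95% interval from -0.11 to 0.42. On each array the spots of Nrg1 stayed within a narrow range, 0.28 to 0.32 on array 1 and -0.01 to 0.04 on array 2, so that the gap lay between the arrays.

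**Figure D3:**
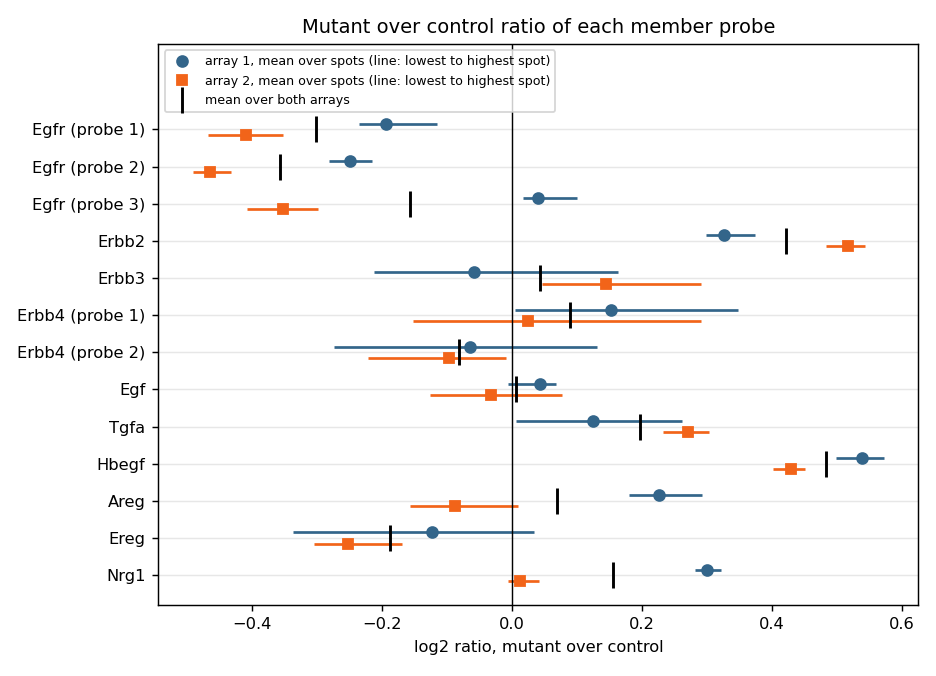
Log2 ratio of mutant over control of each member probe, with circles for array 1 and squares for array 2; coloured lines run from the lowest to the highest spot of the probe and black ticks mark the mean over both arrays. Spots of bright probes cluster tightly, and Hbegf, Erbb2, Tgfa and Egfr probes 1 and 2 lie on 1 side of 0 on both arrays over their whole spot range.

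Other genes that act with the receptors were grouped by role. Beside the counts of these lists and of the cell type markers below, 3.79% of all genes tested were called. Of the 5 other ERBB ligand genes, 4 were tested and 0 were called, with a median log2 ratio of 0.07. The smallest p-values were those of Nrg2, a neuregulin, at 0.31 ± 0.42, Epgn, the EGFR ligand epigen, at 0.16 ± 0.13, and Nrg4, a neuregulin, at -0.15 ± 0.24 (adjusted p from 0.246 to 0.487). Nrg3 was not tested.

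All 9 genes of ligand shedding were tested, and 0 were called. This group holds mainly ADAM proteases, which cut ligands free, and rhomboid proteins. Their median was 0.14, and 7 of 9 lay above 0 on both arrays, for which the share of all genes was not counted. Rhbdf1, an inactive rhomboid that helps the protease ADAM17 to mature, stood at 0.33 ± 0.25 (adjusted p = 0.161). Rhbdl2, a rhomboid protease, stood at 0.28 ± 0.13 (adjusted p = 0.176), and the protease gene Adam12 at -0.26 ± 0.01 (adjusted p = 0.186).

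All 13 genes that restrain or otherwise regulate the receptors were tested, 0 were called, and their median was -0.04. Ptpn12, a tyrosine phosphatase, stood at -0.31 ± 0.13 (adjusted p = 0.144), Lrig2, of a family of membrane proteins that regulate ERBB receptors, at -0.24 ± 0.13, and Socs5, a suppressor of cytokine signalling, at -0.18 ± 0.16.

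All 32 adaptor and kinase genes were tested, 0 were called, and their median was 0.09. Src, a membrane-bound tyrosine kinase, stood at 0.35 ± 0.05 (adjusted p = 0.102), the adaptor Nck2 at 0.46 ± 0.36, and Grb2, the adaptor that links receptors to RAS, at 0.33 ± 0.08. At an unadjusted p below 0.05 there were 7 of these 32 genes, against 22.5% of all genes.

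Of 17 genes that respond to ERK signalling, 16 were tested, 1 was called higher and 0 lower, and the median was -0.03. The called gene was Egr1, an immediate early transcription factor, with ratios of 1.10 and 0.61 and a mean of 0.85 ± 0.34 (SD, n = 2; adjusted p = 0.0216). No gene of these 5 lists, Egr1 included, passed with the processed signals, median centring, the authors' value table or separate channels with no replicate block. Ier3, an immediate early gene linked to cell survival, stood at -0.36 ± 0.14 (adjusted p = 0.110) and the chromatin protein gene Hmga2 at -0.33 ± 0.18 (adjusted p = 0.142). ERK responds to FGF receptors as well as ERBB receptors, and these genes are not specific to either.

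**Figure D4:**
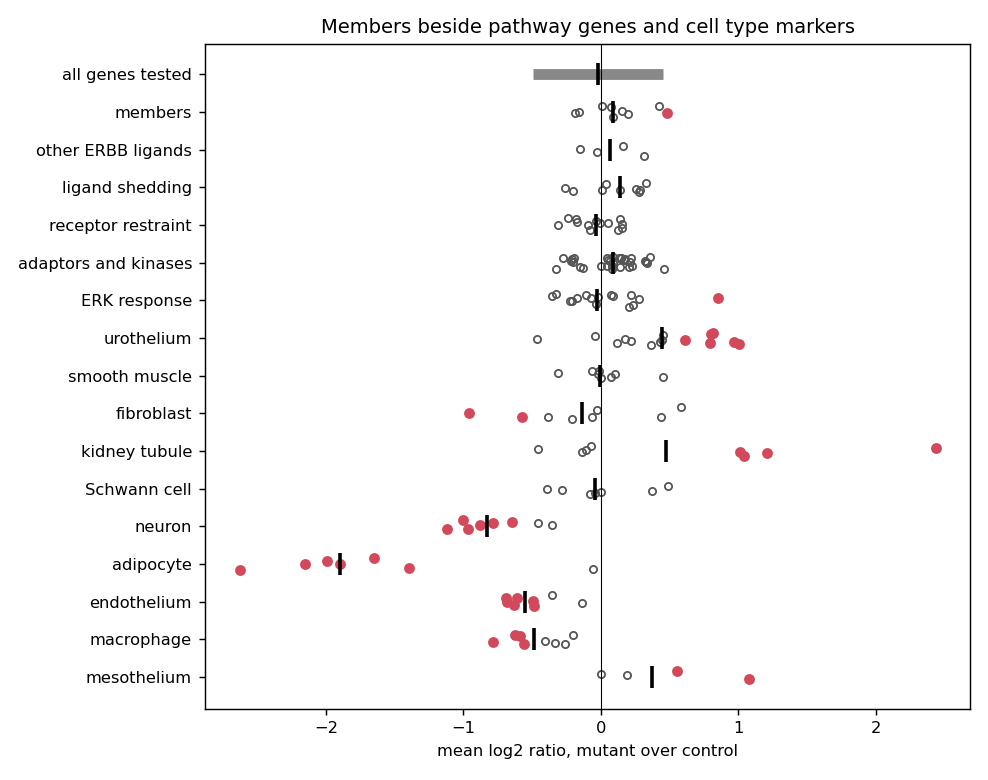
Mean log2 ratio of each tested gene (points, red where the adjusted p was below 0.05) among the members, 5 lists of genes acting with them and 10 lists of cell type markers, with a black tick at each median; the grey bar holds the middle 95% of all genes tested, from -0.49 to 0.45. The members and the lists acting with them centre near 0 with 1 called gene each at most, while urothelial markers lie mostly above 0 and neuron, adipocyte, endothelium and macrophage markers below it. Vertical scatter within a row has no meaning.

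Whole ureters were measured, and fewer cells of a type and less RNA per cell cannot be told apart in such RNA. All 15 urothelial and all 8 smooth muscle markers were well above background in all 4 RNAs. The same held for all tested fibroblast, neuron, adipocyte, endothelial and macrophage markers, so detection does not single out the labelled tissue. Urothelial markers moved mostly, but not all, in the direction of Hbegf and Erbb2, with 6 of 15 called higher, 0 lower and a median of 0.45. On both arrays, 12 of the 15 lay above 0, with no share of all genes counted beside this. Krt5 lay below 0 on both, at -0.46 ± 0.30 (adjusted p = 0.0833). The summed signal of the 15 markers was 379259 and 398530 in the control RNAs and 513793 and 620100 in the mutant RNAs of arrays 1 and 2. Of the first 3 on that list, Upk1a, a uroplakin of the superficial cells, rose by 0.97 ± 0.15 (adjusted p = 0.0116). The others of these 3, Upk1b and Upk2, did not pass. Smooth muscle markers had 0 of 8 called and a median of -0.01, with a summed signal of 594411 to 640198 over the 4 RNAs. The part of urothelial content in the ratios of Hbegf and Erbb2 was not tested.

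Markers of Schwann cells, for which neuregulin and Erbb3 matter, had 0 of 7 called and a median of -0.05, with summed signals of 47049 and 61388 in the control RNAs and 66357 and 73223 in the mutant RNAs. Of 12 kidney tubule markers, 8 were tested, 4 were called higher and the other 4 lay below 0 on both arrays without passing, with means from -0.46 to -0.08. Their median of 0.47 falls between these opposed groups. Umod, the gene of the urinary protein uromodulin, rose by 1.04 ± 0.70 (adjusted p = 0.0335) and the potassium channel gene Kcnj1 by 1.02 ± 0.74 (adjusted p = 0.0399), each with the larger ratio on array 1. The summed signal of the 8 tested kidney tubule markers was nevertheless lower in the mutant RNAs, at 11883 and 11515 against 13488 and 13658. Slc12a1, Slc12a3, Lrp2 and Calb1 were not tested. The part of these cells in the ratio of Egf was not tested.

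Markers of most other cell types had calls on the lower side, and those of the mesothelium on the higher side. Neuron markers had 6 of 8 called lower, with Stmn2, Prph and Dbh at -1.0, -0.78 and -0.97, and summed signals of 9003 and 9074 in the control RNAs against 5678 and 5206 in the mutant RNAs. Adipocyte markers had 6 of 7 lower, with Adipoq, Cfd and Fabp4 at -2.15 ± 1.41, -2.63 ± 1.97 and -1.99 ± 1.19 (SD, n = 2). Each of these genes lay much further below 0 on array 2, as with Cfd at -1.23 and -4.02 on arrays 1 and 2. The adipocyte sums were 68793 and 57381 against 31391 and 7397. Endothelial markers had 6 of 8 lower, with Cdh5 and Emcn at -0.69 and -0.63, and sums of 6091 and 5602 against 4206 and 4155. Macrophage markers had 4 of 8 lower, with Mrc1 at -0.79, and sums of 111076 and 84396 against 87471 and 59397. Fibroblast markers had 2 of 8 lower, with sums of 492376 and 523725 against 537546 and 492004. Mesothelial markers had 2 of 4 higher, with Msln at 1.08, and sums of 4696 and 5254 against 6635 and 7328. The part of these cell types in the members' ratios was not tested.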

How the data were processed

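Spot intensity (mean signal, with the median of the local background beside it) was deposited as read by Agilent Feature Extraction, in version 10.7.3.1 according to the submitters' processing notes. That program also wrote the log10 ratio of its processed signals, per the file headers. The authors' deposited value table holds a score for each probe, a signed fold change; its averaging and centring are not given in the sources used here. Probe coordinates are mm9, per the file headers.

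The main setting used limma 3.58.1 (R 4.3.3), with normexp background correction (offset 50), which shrinks the ratios of dim probes, and then within-array loess. Control spots and 19304 spots of a filler probe had weight 0 there, and outlier spots (3.17% and 3.65% of gene spots on arrays 1 and 2) were left out. This weighting was settled after the members' values had been seen, as the one of 4 compared that matched earlier work on these data; the others are reported as alternatives. The 4 spots of a probe were averaged. Tested probes were those well above background in more than 0.5 of their spots on both arrays in at least 1 genotype, and the brightest tested probe stood for its gene. Ratios, turned by the dyes in the labels to mutant over control, were tested against 0 with lmFit and eBayes (1 residual and 7.45 prior degrees of freedom), two-sided, adjusted by Benjamini-Hochberg over all 22070 genes, at 0.05. Levels are log2 signals per RNA after loess and quantile scaling of the average signal between arrays.

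Named are all members, for each list acting with them its 3 tested genes of smallest p, and called genes among the first 3 markers of each cell type. Krt5, Upk1b and Upk2 are named besides, as urothelial markers that did not rise or did not pass. The members and lists were chosen with earlier results of these data known. Alternatives covered the background correction, normalisation, value table, filter, probe rule, variance model, separate channels, threshold and leaving out an array. No RefSeq sequence was printed; probe sequences are from the scanner files. Some probe sequences are not reported here.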

Additional observations from a re-analysis of the deposited data

How the results depend on the processing

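Of the 4 counts, that of ligand genes called was 1 and became 0 with the processed signals, median centring, the authors' value table, the filler probe kept in the loess, with or without the outlier spots, and separate channels with and without the array as a block. The receptor count was 0 in the main setting and 1 at a threshold of 0.10, where Erbb2 passes. Of all genes, 836 were called, and 10 with the processed signals, 0 with median centring (5584 at an unadjusted p below 0.05), 170 with the authors' table, 1415 with an intensity trend, 1359 with each probe as its own feature and 1907 at a threshold of 0.10. Separate channels gave 223 with the replicate block and 3 with no replicate block. The 1 called gene of the ERBB pathway lists, Egr1, became 0 with the processed signals, median centring, the authors' table and no replicate block, and 2 with an offset of 0, an intensity trend and each probe as its own feature. Under median centring the all-gene median was -0.14 in place of -0.02, and Egf turned to -0.094 and Nrg1 to -0.041, both still above that median. Apart from these 2, the tested members kept their sign in every alternative with a test, several of which leave their ratios unchanged. The cause was not tested. The loess weighting of the main setting, and the 3 others set against it, were chosen after seeing the data. Leaving out an array gives a single ratio with no test and so no count: Hbegf ranged from 0.43 to 0.54, Erbb2 from 0.33 to 0.52, Egfr from -0.35 to 0.04, Areg from -0.09 to 0.23 and Egf from -0.03 to 0.04. Dim signal limits Erbb3 and Erbb4 probe 2.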
